A study of Arabidopsis thaliana with 18 samples.

Results

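The ethylene signalling genes described here are 10 core genes of the pathway, from receptor to transcription factor turnover, each measured by 1 probe set on an Arabidopsis thaliana array. They are the receptor genes ETR1 (AT1G66340_at), ERS1 (AT2G40940_at), EIN4 (AT3G04580_at) and ETR2 (AT3G23150_at), the kinase gene CTR1 (AT5G03730_at), the membrane protein gene EIN2 (AT5G03280_at), the transcription factor genes EIN3 (AT3G20770_at) and EIL1 (AT2G27050_at), and the F-box genes EBF1 (AT2G25490_at) and EBF2 (AT5G25350_at). They make up 10 of the 27827 probe sets in the series. The receptor gene ERS2 is not among them and is listed with the other ethylene genes. The set was chosen by pathway membership after EIN2 and EBF2 had been selected on measured values, because both were lower in the mutant. The differences between genotypes among the 10 genes are therefore given as a description, without p-values, and nothing is concluded from how many of them passed a threshold. The differences between RNA fractions were not used in that choice and were tested.

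The seeds were of the abci20 mutant, in the Col-0 ecotype, and of Col-0 itself, and they were freshly harvested and dry. ABCI20 encodes a member of the ABC transporter superfamily, and the kind of abci20 allele is not given in the labels. From each genotype, polysomal RNA (messages carrying several ribosomes), monosomal RNA (messages carrying a single ribosome) and total RNA were measured, with 3 arrays in each of the 6 groups. Each replicate was a bulk of 8 plants, so a value is an average over many whole seeds and their tissues. The values are RMA signals on a log2 scale, and a difference of 1 log2 unit is a 2-fold change. Each fraction was measured on its own arrays, so a difference between fractions is relative to the other messages of those fractions and is not an amount of RNA.

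Ethylene is a gaseous hormone that promotes germination and counters abscisic acid in seeds. Its receptors, at the endoplasmic reticulum, keep the kinase CTR1 active in the absence of the hormone, and CTR1 phosphorylates EIN2. When ethylene binds, the C-terminal part of EIN2 is released. It enters the nucleus, where it acts with EIN3 and EIL1, and it also represses the translation of EBF1 and EBF2 messages. The EBF1 and EBF2 proteins mark EIN3 and EIL1 for degradation, and EBF2 is itself a transcriptional target of EIN3, so the pathway contains a feedback loop.

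The probe set of the disrupted gene, ABCI20, was between 1.1 and 2.41 log2 in the 9 abci20 arrays, against 3.80 to 5.09 in the 9 Col-0 arrays. It fell by 2.31 log2 in total RNA (adjusted p = 0.00151), by 2.32 in polysomal RNA (adjusted p = 0.00406) and by 2.40 in monosomal RNA (adjusted p = 0.00195), by limma with Benjamini-Hochberg adjustment. The 12 seed maturation markers (storage protein, oleosin and Em genes) lay between percentiles 94.3 and 100 of every array. Summed over their list they reached 14.8 to 15.4 log2 in abci20 arrays and 15.0 to 15.5 in Col-0 arrays. The corresponding sums were 6.98 to 7.53 in abci20 and 6.94 to 7.34 in Col-0 for green tissue markers, 4.01 to 4.64 and 4.16 to 4.74 for seed coat markers, and 10.1 to 11.4 and 10.4 to 11.4 for endosperm markers. Signals were summed on the linear scale, so the brightest gene of a list weighs most. The endosperm sum is mainly EPR1 (10.05 to 11.37), as EXPA2 and MAN7 reached only 4.04 and 4.57. The green tissue sum is mainly RBCS1A (6.485 to 7.213), and the next brightest, LHCB1.2, reached 4.15. In total RNA 11 of the 12 seed maturation markers were lower in abci20, 7 of them without overlap (beside 10% of all probe sets), with a median difference of -0.21 and 0 past the threshold by limma (2 at an unadjusted p below 0.05). Of the 3 endosperm markers, MAN7 rose in abci20 monosomal RNA by 1.21 log2 (adjusted p = 0.0464). The part of tissue make-up in the results below was not tested, and fewer cells of a type cannot be told apart from less RNA per cell. Array abci20 total replicate 1 stood apart, with correlations across genes of 0.893 and 0.915 with the other abci20 total arrays, against 0.957 to 0.987 within the other 5 groups. Without it, the total RNA difference between genotypes was -1.12 log2 for EIN2, -2.52 for EBF2 and 0.57 for EBF1. Where leaving it out changed the sign of a total RNA difference between genotypes of the 10 genes, the value is given below. Its effect on some counts and on the overlap of CTR1 is given as well.

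EIN2 and EBF2, on which the choice of genes was based, were lower in the mutant in every fraction. EIN2, which acts between CTR1 and EIN3 in the pathway, had 5.92, 5.91 and 6.15 log2 in abci20 polysomal RNA, against 7.24, 7.10 and 7.42 in Col-0 polysomal RNA. Its levels were 3.98, 4.58 and 4.71 in abci20 monosomal RNA, against 5.43, 5.94 and 5.75 in Col-0 monosomal RNA, and 4.88, 4.75 and 4.62 in abci20 total RNA, against 5.74, 5.85 and 5.83 in Col-0 total RNA. The genotypes did not overlap in any fraction. The fitted difference was -1.26 log2 in polysomal RNA, -1.28 in monosomal RNA and -1.06 in total RNA, each with a standard error of 0.211. These are levels 2.40-fold, 2.43-fold and 2.08-fold lower in abci20.

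EBF2 was 7.12, 6.29 and 7.29 log2 in abci20 polysomal RNA, against 9.20, 9.16 and 9.21 in Col-0 polysomal RNA. Its levels were 6.44, 5.62 and 6.32 in abci20 monosomal RNA, against 8.23, 8.03 and 8.57 in Col-0 monosomal RNA, and 5.99, 5.64 and 6.29 in abci20 total RNA, against 8.35, 8.42 and 8.70 in Col-0 total RNA. Every abci20 array was below every Col-0 array, whatever the fraction. The fitted difference was -2.29 log2 in polysomal RNA, -2.15 in monosomal RNA and -2.52 in total RNA, with a standard error of 0.278, or 4.89-fold, 4.44-fold and 5.72-fold lower in abci20. The mutant bulks also varied more among themselves: the SD of EBF2 in polysomal RNA was 0.532 log2 in abci20 and 0.0262 in Col-0 (n = 3 each), and replicate 2 was the lowest abci20 array in each fraction.

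**Figure D1:**
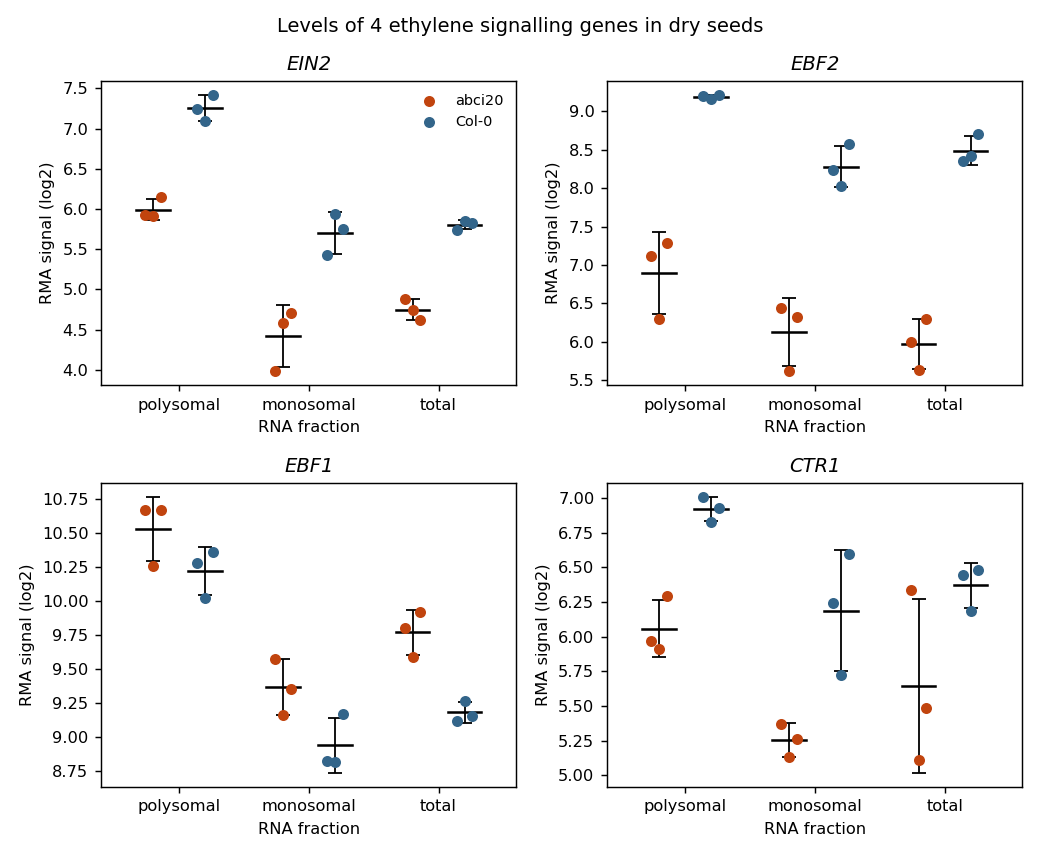
RMA signal (log2, y axis, scaled separately for each gene) of EIN2, EBF2, EBF1 and CTR1 in polysomal, monosomal and total RNA, with abci20 left of Col-0; points are arrays, horizontal lines group means and vertical bars SD (n = 3). EIN2 and EBF2 in abci20 lie below Col-0 in each fraction, EBF1 in total RNA lies above it, and CTR1 lies below it except for 1 abci20 total array at 6.34.

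EBF1, the partner of EBF2 in EIN3 turnover, was not lower. In total RNA it had 9.80, 9.59 and 9.92 log2 in abci20, against 9.12, 9.27 and 9.16 in Col-0, and the genotypes did not overlap (difference 0.59, SE 0.196, 1.5-fold higher in abci20). Polysomal levels were 10.67, 10.26 and 10.67 in abci20, against 10.28, 10.02 and 10.36 in Col-0, and monosomal levels were 9.58, 9.17 and 9.36, against 8.83, 8.82 and 9.17. In both of these fractions the genotypes overlapped, with fitted differences of 0.31 and 0.43. In total RNA the abci20 arrays thus had lower EBF2 and higher EBF1 signals than the Col-0 arrays, which is a description and was not tested. Centring each array on its own median, which shifted the median difference of all probe sets in total RNA by -0.142, left the EBF1 difference at 0.45.

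CTR1, the kinase that restrains EIN2, was lower in the mutant in both ribosome-bound fractions. Its polysomal levels were 5.97, 5.91 and 6.29 log2 in abci20, against 7.01, 6.83 and 6.93 in Col-0 (difference -0.86, SE 0.274, 1.82-fold lower). Monosomal levels were 5.37, 5.13 and 5.26 in abci20, against 6.24, 5.73 and 6.59 in Col-0 (difference -0.93, 1.91-fold lower). The genotypes did not overlap in either fraction. In total RNA the levels were 6.34, 5.11 and 5.49 in abci20, against 6.44, 6.19 and 6.48 in Col-0, a difference of -0.72. The overlap there came from abci20 total replicate 1, and the difference was -1.07 without that array and -0.46 without abci20 total replicate 2, its lowest array.

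The receptor genes showed smaller or less even differences. ETR1, the first described ethylene receptor, differed by -0.09 log2 in polysomal, -0.0036 in monosomal and -0.10 in total RNA (SE 0.183), and its genotypes overlapped in each fraction. The total RNA value of ETR1 was -0.24 with each array centred on its median and 0.01 with quantile normalization. ERS1 also overlapped in each fraction, with differences of -0.03, -0.50 and -0.09 (SE 0.37), the last being 0.11 without abci20 total replicate 1. EIN4 had 4.38, 4.26 and 4.05 log2 in abci20 polysomal RNA, against 4.52, 4.83 and 4.47 in Col-0 polysomal RNA, without overlap but with a difference of -0.38 that is close to its standard error of 0.295. Its monosomal difference was 0.29 and its total difference -0.07 (0.05 without abci20 total replicate 1), both with overlap.

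ETR2, a receptor gene that ethylene induces in seedlings, was dim, between percentiles 3.91 and 50.2 of the arrays, so its differences are near the low end of what the arrays measured. It had 1.83, 1.27 and 1.42 log2 in abci20 polysomal RNA, against 2.38, 3.07 and 2.47 in Col-0 polysomal RNA. Its monosomal levels were 1.87, 2.16 and 2.16 in abci20, against 3.26, 2.74 and 2.70 in Col-0. The genotypes did not overlap in these fractions, with differences of -1.13 and -0.83 (SE 0.378). In total RNA they overlapped, at 1.55, 3.27 and 2.66 in abci20 and 3.45, 2.18 and 3.08 in Col-0, a difference of -0.41 (0.07 without abci20 total replicate 1).

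The transcription factor genes themselves differed little. EIN3, the main ethylene-activated factor, had 9.35, 9.59 and 9.45 log2 in abci20 monosomal RNA, against 8.86, 9.22 and 8.89 in Col-0 monosomal RNA, which did not overlap (difference 0.47, SE 0.194, 1.39-fold higher in abci20). Its polysomal difference was 0.24 and its total difference 0.03, both with overlap. EIL1, its close relative, overlapped in each fraction, with differences of -0.17 in polysomal, -0.10 in monosomal and -0.06 in total RNA (SE 0.201). The total RNA value of EIL1 was 0.04 without abci20 total replicate 1.

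**Figure D2:**
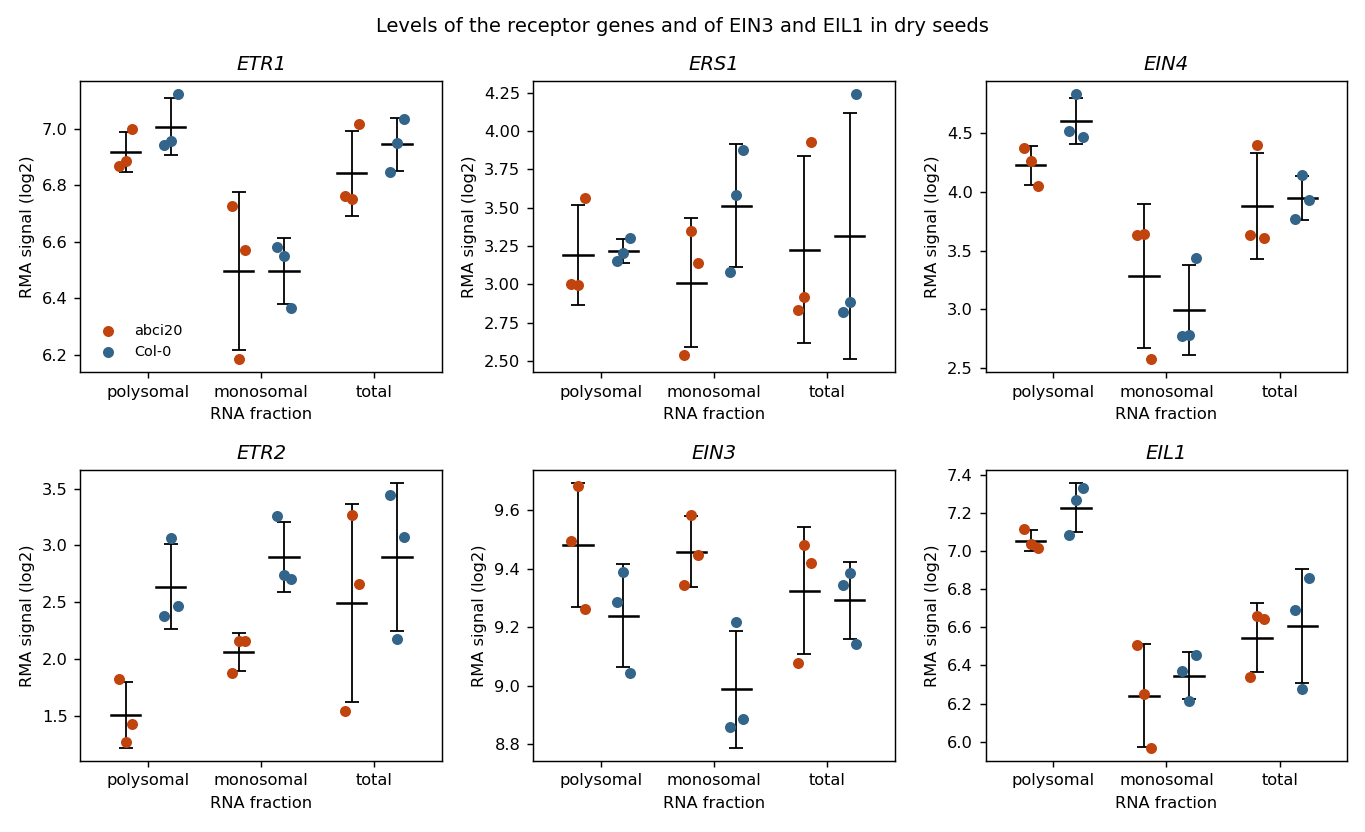
RMA signal (log2, y axis, scaled separately for each gene) of the receptor genes ETR1, ERS1, EIN4 and ETR2 and of the transcription factor genes EIN3 and EIL1 in polysomal, monosomal and total RNA, with abci20 left of Col-0; points are arrays, horizontal lines group means and vertical bars SD (n = 3). ETR2 in abci20 lies below Col-0 in the polysomal and monosomal fractions and EIN3 lies above it in monosomal RNA, while ETR1, ERS1 and EIL1 overlap in each fraction.

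Over the 10 genes, the median genotype difference was -0.28 log2 in polysomal, -0.30 in monosomal and -0.10 in total RNA, beside -0.0088, -0.027 and 0.0079 over all probe sets. In polysomal RNA 5 of the 10 genes were lower in abci20 without overlap (EIN2, EBF2, CTR1, EIN4 and ETR2) and 0 were higher, beside 11.0% and 10.3% of all probe sets. In monosomal RNA 4 were lower and 1, EIN3, was higher, beside 10.3% and 9.52%. In total RNA 2 were lower, the selected EIN2 and EBF2, and 1, EBF1, was higher, beside 10% and 6.76%. The 2 genes of the selection, EIN2 and EBF2, and no other of the 10 were below the limma threshold (adjusted p below 0.05) in each fraction, beside 0.208% of all probe sets in polysomal, 0.744% in monosomal and 2.24% in total RNA. Because both genes were selected on this difference, this count is no test of it and nothing is read from it. The same holds for the medians and the counts without overlap, which include both genes in each fraction.

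**Figure D3:**
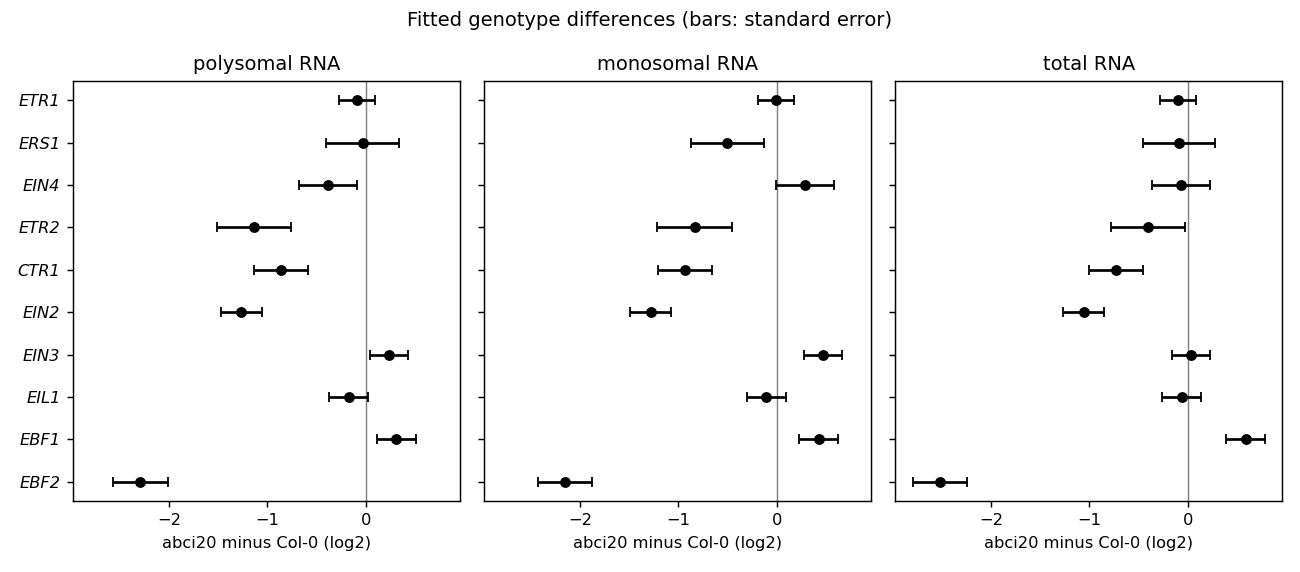
Fitted difference (abci20 minus Col-0, log2, x axis) of the 10 genes in polysomal, monosomal and total RNA, ordered from receptors to F-box genes; bars are standard errors from limma. EBF2 is farthest from 0 in each panel, at -2.29, -2.15 and -2.52, followed by EIN2, while EBF1 lies above 0.

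The comparison of polysomal with total RNA asked which messages were more abundant among those carrying several ribosomes than in the whole pool. EIN2 was higher in polysomal than in total RNA in both genotypes: it rose by 1.25 log2 in abci20 (SE 0.211, 2.37-fold, adjusted p = 0.00138) and by 1.45 in Col-0 (2.73-fold, adjusted p = 0.00221), higher in 3 of 3 arrays of each genotype. EBF1 rose by 0.76 in abci20 (SE 0.196, adjusted p = 0.0126) and by 1.04 in Col-0 (adjusted p = 0.00764). EBF2 rose by 0.93 in abci20 (SE 0.278, adjusted p = 0.0259), a call lost under quantile normalization (0.60, adjusted p = 0.203), and abci20 polysomal replicate 2, at 6.29, did not exceed all abci20 total arrays. In Col-0 its difference was 0.70 (adjusted p = 0.132, and 0.0469 with a replicate block by seed bulk), with no overlap between the fractions.

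Past the threshold were 3 of the 10 genes in abci20 (EIN2, EBF1 and EBF2) and 2 in Col-0 (EIN2 and EBF1), beside 11.9% and 4.06% of all probe sets called higher. Without overlap, 3 genes were higher in abci20 and 6 in Col-0, beside 19.4% and 20.4%. The median difference of the 10 genes was 0.38 in abci20 and 0.59 in Col-0, beside 0.020 and 0.0052 over all probe sets. Fitted alone, the brighter probe sets (highest group mean above the median) had medians of 0.38 and 0.24. Of these, 4011 and 1879 of 13913 were called higher. All of the 10 genes but ERS1, EIN4 and ETR2 stayed at or above percentile 59.7 of every array. The part of brightness in these counts was not tested. The EIN2 calls held without any of the arrays in turn, with adjusted p of at most 0.00954 in abci20 and 0.0193 in Col-0. The EBF1 call in abci20 did not pass without abci20 polysomal replicate 1 (0.0589), abci20 polysomal replicate 3 (0.0516) or abci20 total replicate 2 (0.052), and the EBF2 call in abci20 did not pass without abci20 polysomal replicate 1 (0.1), abci20 polysomal replicate 3 (0.113) or abci20 total replicate 2 (0.11). Without each of these in turn the count in abci20 was 1, beside 3076, 3621 and 3395 of 27827 called in either direction. Without abci20 total replicate 1 it was 5 (4 higher and 1 lower in polysomal RNA), beside 9163 (4968 higher and 4195 lower).

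Between polysomal and monosomal RNA the same direction was seen for more of the genes. EIN2 rose in polysomal relative to monosomal RNA by 1.57 log2 in abci20 (2.96-fold, adjusted p = 0.000195) and by 1.55 in Col-0 (2.93-fold, adjusted p = 0.00022). EBF1 rose by 1.17 in abci20 (adjusted p = 0.00112) and by 1.28 in Col-0 (adjusted p = 0.000582), and EIL1 by 0.81 in abci20 (SE 0.201, adjusted p = 0.0147) and 0.88 in Col-0 (adjusted p = 0.00869). For these 3 genes polysomal and monosomal arrays did not overlap in either genotype. Under quantile normalization the EIL1 calls did not pass, at 0.655 in abci20 (adjusted p = 0.0772) and 0.669 in Col-0 (adjusted p = 0.07).

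EIN4 was the receptor gene with a difference between these fractions past the threshold. Its monosomal levels were 3.64, 3.65 and 2.58 log2 in abci20 and 2.77, 2.78 and 3.44 in Col-0, each below the polysomal levels of the same genotype. EIN4 rose in polysomal RNA by 0.94 in abci20 (SE 0.295, adjusted p = 0.0493) and by 1.61 in Col-0 (3.06-fold, adjusted p = 0.00198). Its signal lay between percentiles 33.7 and 64.0 of the arrays. In abci20 the difference missed the threshold under quantile normalization (0.752, adjusted p = 0.213), with the compared groups alone (adjusted p = 0.0637) and with the variance trend (adjusted p = 0.061). The abci20 call did not pass without abci20 monosomal replicate 3 (difference 0.59, adjusted p = 0.228) or without abci20 polysomal replicate 1, 2 or 3 (adjusted p = 0.162, 0.118 and 0.0826), and the Col-0 call held without each array in turn. EBF2 rose by 0.91 in Col-0 (adjusted p = 0.0404), and its difference in abci20 was 0.77 (adjusted p = 0.0873). The Col-0 call of EBF2 did not pass without Col-0 monosomal replicate 1 (0.101) or 2 (0.109) or without Col-0 polysomal replicate 1 (0.0999), 2 (0.0972) or 3 (0.107), and the abci20 difference passed without abci20 polysomal replicate 2 (1.07, adjusted p = 0.0244) and with a replicate block by seed bulk (adjusted p = 0.0215).

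In polysomal against monosomal RNA, 4 of the 10 genes were called higher in abci20 and 5 in Col-0, beside 7.31% and 8.2% of all probe sets. Among the brighter probe sets 2628 and 2923 of 13913 were called higher. Their medians were 0.19 and 0.23, beside -0.11 and -0.13 over all probe sets. Without overlap, 6 of the 10 genes were higher in abci20 and 7 in Col-0, beside 17.7% and 19.2% of all probe sets. ETR2 was lower without overlap in abci20 (difference -0.56, adjusted p = 0.372). CTR1 and ETR1 were higher without overlap in both genotypes but missed the threshold, with CTR1 differences of 0.80 in abci20 and 0.73 in Col-0 (adjusted p = 0.0712 and 0.0863). EIN3 stayed near 0, at 0.02 in abci20 (95% interval -0.387 to 0.433) and 0.25 in Col-0 (-0.158 to 0.661). Without abci20 monosomal replicate 3 or abci20 polysomal replicate 1 the count in abci20 was 2, beside 1422 and 1095 of 27827 called higher. EIL1 was then past the threshold in neither case (adjusted p = 0.0725 and 0.0658).

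**Figure D4:**
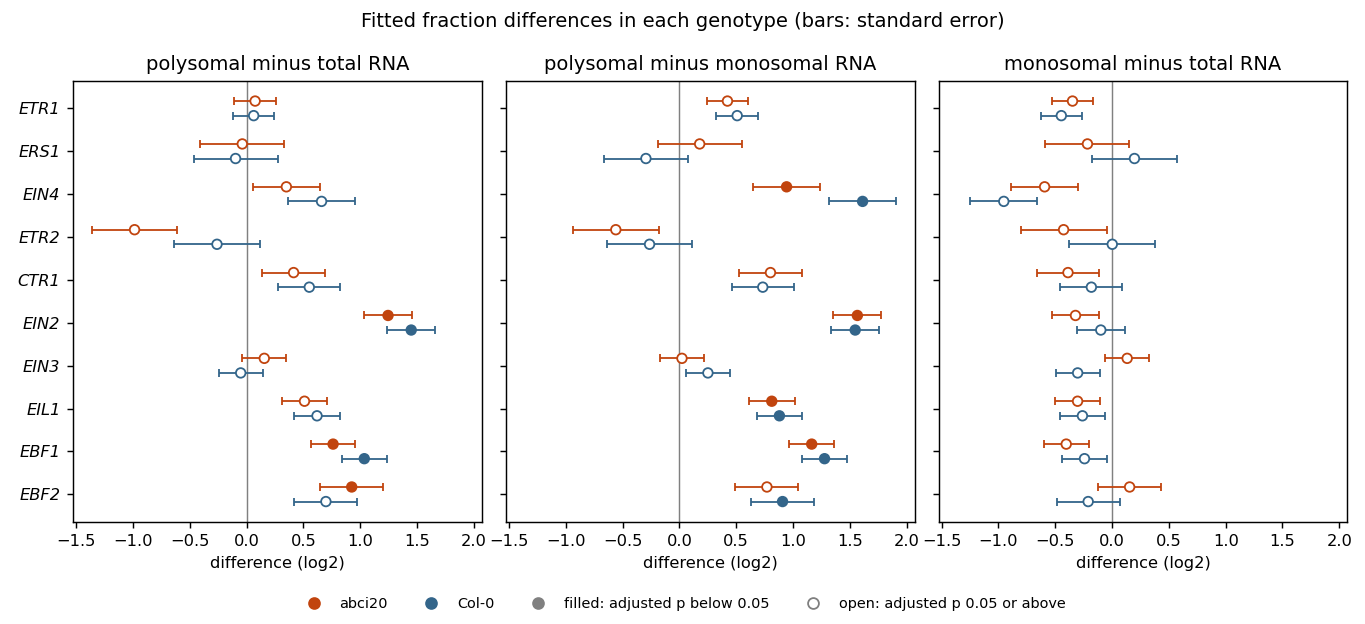
Fitted differences between RNA fractions (log2, x axis) of the 10 genes, with abci20 drawn above Col-0 for each gene; bars are standard errors from limma and filled points have an adjusted p below 0.05. EIN2 and EBF1 are filled in both genotypes for polysomal minus total and polysomal minus monosomal RNA, and the monosomal minus total panel holds no filled point.

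Monosomal and total RNA did not differ past the threshold for any of the 10 genes in either genotype by limma (0 of 10 in each), beside 14.7% of all probe sets called in abci20 and 6.65% in Col-0. At an unadjusted p below 0.05 there were 0 in abci20 and 2 in Col-0, ETR1 and EIN4, beside 30.1% and 23.3% of all probe sets. Lower in monosomal RNA without overlap were ETR1 and EBF1 in abci20 and ETR1 and EIN4 in Col-0, beside 10.4% and 12.1%. The EIN4 difference was -0.95 in Col-0 (SE 0.295, adjusted p = 0.0624) and -0.59 in abci20 (adjusted p = 0.187). For EIN2 it was -0.32 in abci20 and -0.10 in Col-0, for EBF1 -0.40 and -0.24, and for EBF2 0.15 and -0.21. The count in Col-0 was 1, EIN4, with a block for seed bulk and without Col-0 monosomal replicate 3, beside 1706 and 1125 of 27827.

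All 6 fraction comparisons use overlapping arrays within a genotype, so their counts are not independent of one another. The alternative of centring every array on its median shifted the median of all probe sets by 0.324 log2 in abci20 and 0.213 in Col-0 for polysomal minus total RNA, and by 0.298 and 0.139 for monosomal minus total RNA. Quantile normalization shifted polysomal minus monosomal RNA by 0.101 in abci20 and 0.117 in Col-0. Under quantile normalization 2 genes in abci20 and 3 in Col-0 were called higher in polysomal than in monosomal RNA, beside 1160 and 1190 of 27827. The EIN2 and EBF1 calls in that comparison held under each scaling that was run.

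Whether the fraction differences themselves differed between the genotypes was tested with an interaction term. By limma, 0 of all probe sets passed the threshold (0.0%) for polysomal minus total RNA, 0 (0.0%) for polysomal minus monosomal RNA and 0 (0.0%) for monosomal minus total RNA. At an unadjusted p below 0.05 there were 1263, 744 and 2270 probe sets (4.54%, 2.67% and 8.16%), and 0 of the 10 genes in each. Without abci20 total replicate 1, 28 probe sets (3 higher and 25 lower) passed for polysomal minus total RNA and 208 (51 higher and 157 lower) for monosomal minus total RNA, with 0 of the 10 genes in both. For EIN2 the abci20 difference minus the Col-0 difference was -0.20 log2 for polysomal minus total RNA (95% interval -0.833 to 0.426) and 0.02 for polysomal minus monosomal RNA (-0.61 to 0.649), given without a test. The corresponding EBF2 values were 0.23 (-0.601 to 1.06) and -0.14 (-0.966 to 0.69). All 4 intervals include 0, and their width is what 3 arrays a group allow.

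EBF1, whose message is one of those repressed through EIN2 in ethylene-treated seedlings, had an interaction of -0.27 log2 for polysomal minus total RNA (95% interval -0.86 to 0.311, adjusted p = 0.999) and -0.11 for polysomal minus monosomal RNA (-0.699 to 0.472, adjusted p = 1.0). EIN4 had the largest value in size among the 8 genes tested for polysomal minus monosomal RNA, at -0.67 (-1.55 to 0.211), and ETR2 for polysomal minus total RNA, at -0.73 (-1.85 to 0.4). EIN3 had 0.44 for monosomal minus total RNA (-0.144 to 1.02, adjusted p = 0.714). A difference in ribosome loading between the genotypes was not detectable for any of these genes with 3 arrays a group.

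Ordered by mean level over the 6 groups, EIN2 was highest in Col-0 polysomal RNA (7.25 ± 0.161 log2, SD, n = 3), followed by abci20 polysomal RNA (5.99 ± 0.135), Col-0 total RNA (5.81 ± 0.0566), Col-0 monosomal RNA (5.71 ± 0.26), abci20 total RNA (4.75 ± 0.128) and abci20 monosomal RNA (4.43 ± 0.388). The polysomal level of the mutant thus lay just above the total level of Col-0. Neighbours overlapped only for Col-0 total and monosomal RNA and for abci20 total and monosomal RNA. For EBF2 the 3 Col-0 groups came first (9.19 ± 0.0262 polysomal, 8.49 ± 0.186 total and 8.28 ± 0.271 monosomal) and the 3 abci20 groups last (6.90 ± 0.532 polysomal, 6.13 ± 0.447 monosomal and 5.97 ± 0.329 total). Among the abci20 groups each overlapped its neighbour, as Col-0 total and monosomal RNA did. EBF1 had the polysomal groups on top, abci20 (10.53 ± 0.238) and Col-0 (10.22 ± 0.179), which overlapped. Below them came abci20 total (9.77 ± 0.166) and abci20 monosomal RNA (9.37 ± 0.205), then Col-0 total (9.18 ± 0.0767) and Col-0 monosomal RNA (8.94 ± 0.202), and from abci20 monosomal RNA down each group overlapped the next.

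Across the 18 arrays, which share their seed bulks and groups, the genes most like EIN2 by Pearson correlation of log2 values were HIRA (r = 0.965), which encodes a histone chaperone, HEMB1 (0.954), AT5G49665 (0.95), ARA1 (0.946) and LKP2 (0.935). Those most like EBF2 were CCD7 (0.977), of strigolactone synthesis, AT2G34355 (0.974), the alcohol dehydrogenase gene ADH1 (0.973), AT3G14330 (0.964) and AIRP2 (0.963). Within the pathway, CTR1 was the gene most like both, with r = 0.84 to EIN2 and 0.852 to EBF2, ranks 287 and 215 of all probe sets. EIN2 and EBF2 correlated with each other at 0.813. EBF1 correlated with EBF2 at -0.038 and EIN3 with EBF2 at -0.53. These values are a description of the 18 arrays and were not tested.

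The other ethylene genes, 52 in 7 lists outside the rule for the 10 genes, were tested between genotypes. These lists were also chosen with earlier results of these data known. Their counts beside the shares of all probe sets are therefore a description. By limma 6 of the 52 passed the threshold in total RNA (1 higher and 5 lower in abci20), 2 in polysomal RNA (1 higher, 1 lower) and 2 in monosomal RNA (1 higher, 1 lower), beside 3.35%, 0.442% and 1.83% of all probe sets. The medians over the 52 genes were -0.10, -0.14 and -0.08 log2 in total, polysomal and monosomal RNA. The count in total RNA was 0 when the fit held the compared groups alone, beside 0 of all 27827 probe sets. It was 10 without abci20 total replicate 1, beside 2640, and 3 without Col-0 total replicate 3, beside 355.

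The member of these lists with the largest difference was ARL, of the ARGOS family, whose proteins dampen ethylene responses. Its levels were 3.78, 3.0 and 2.88 log2 in abci20 polysomal RNA, against 6.18, 6.18 and 6.21 in Col-0 polysomal RNA. In monosomal RNA it had 3.13, 2.58 and 2.69 in abci20, against 5.62, 5.65 and 4.30 in Col-0, and in total RNA 2.64, 2.48 and 2.3 in abci20, against 5.02, 5.27 and 5.57 in Col-0. No abci20 array reached any Col-0 array of its fraction. ARL fell by 2.97 log2 in polysomal RNA (SE 0.32, 7.86-fold, adjusted p = 0.000257), by 2.39 in monosomal RNA (5.22-fold, adjusted p = 0.00147) and by 2.81 in total RNA (7.04-fold, adjusted p = 0.000339). When the fit held the compared groups alone, ARL missed the threshold in total (adjusted p = 0.0677) and monosomal RNA (0.0662). The other members of the family, ARGOS and OSR1, were not past the threshold, with differences in total RNA of 0.25 (adjusted p = 0.698) and 0.13 (0.901), and in polysomal RNA of -0.09 and -0.98.

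Among the EIN3-like genes outside the core set, EIL3, which acts in the sulphur response, fell by 1.07 log2 in total RNA (SE 0.21, adjusted p = 0.0105). Its levels there were 7.36, 6.62 and 7.35 in abci20, against 8.12, 8.24 and 8.17 in Col-0. AT5G65100 fell by 1.47 in total RNA (adjusted p = 0.0298), a call that did not pass without abci20 total replicate 2 (-1.11, adjusted p = 0.127) or Col-0 total replicate 1 (-1.13, adjusted p = 0.125) or 3 (-1.61, adjusted p = 0.0605). AT5G10120 rose by 1.24 in polysomal RNA (SE 0.184, adjusted p = 0.00412), with 7.30, 7.31 and 6.85 in abci20, against 5.90, 6.03 and 5.80 in Col-0. The EIN3-like genes thus held calls in both directions, in different fractions.

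Of the 21 response factor and target genes, ERF104, a factor that acts downstream of ethylene in defence, rose in monosomal RNA by 2.22 log2 (SE 0.359, 4.65-fold, adjusted p = 0.00516). Its levels were 6.94, 6.90 and 6.64 in abci20 monosomal RNA, against 4.53, 4.75 and 4.55 in Col-0 monosomal RNA. In total RNA it rose by 1.59 (adjusted p = 0.0211), a call that did not pass without Col-0 total replicate 3 (1.19, adjusted p = 0.109), and in polysomal RNA the difference was 1.25 without overlap (adjusted p = 0.189). PR4, a defence gene induced by ethylene, fell by 2.28 in total RNA (SE 0.374, 4.87-fold, adjusted p = 0.00304), with 6.71, 4.83 and 5.66 in abci20, against 8.03, 7.95 and 8.08 in Col-0. Its differences of -1.27 in polysomal RNA and -1.43 in monosomal RNA did not overlap but missed the threshold (adjusted p = 0.203 and 0.0597). The other 19 genes of the list were not past the threshold in any fraction.

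Of 14 ethylene synthesis genes (ACC synthases and ACC oxidases), 0 were past the threshold in total, polysomal or monosomal RNA by limma, and 3, 1 and 3 had an unadjusted p below 0.05, beside 17.5%, 7.95% and 14.9% of all probe sets. Differences in total RNA ran between -0.73 and 1.03 log2, with a median of 0.09. EOL1, which directs ACC synthases to degradation, fell by 0.91 in total RNA (SE 0.242, adjusted p = 0.0469). That call did not pass when abci20 total replicate 2 (0.166) or 3 (0.102) was left out, or without Col-0 total replicate 1 (0.098), 2 (0.0922) or 3 (0.154). The remaining lists, 4 genes of receptors and receptor modulators (ERS2, RTE1, RTH and RAN1) and 3 genes of EIN2 and EBF turnover (ETP1, ETP2 and XRN4), had 0 past the threshold in each fraction. At an unadjusted p below 0.05 the 4 genes of receptors and receptor modulators had 1, 1 and 0 in total, polysomal and monosomal RNA. The 3 turnover genes had 0, 0 and 0, beside the same 17.5%, 7.95% and 14.9%.

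**Figure D5:**
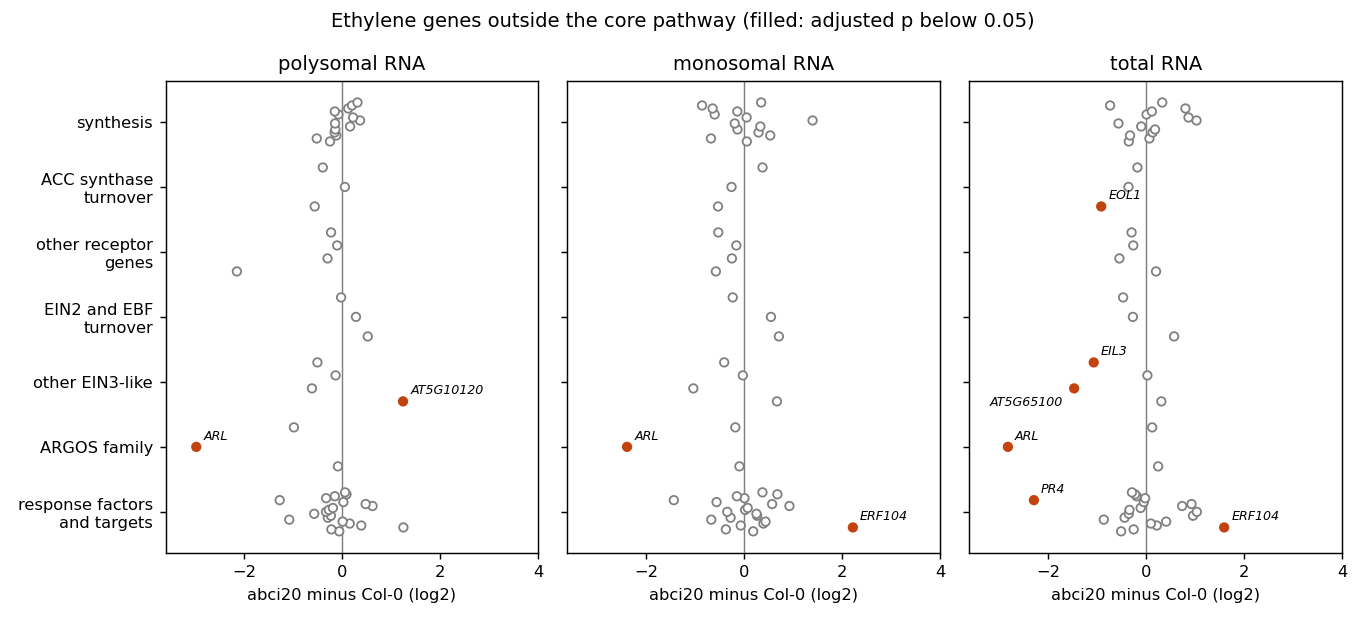
Fitted difference (abci20 minus Col-0, log2, x axis) of the 52 ethylene genes outside the core set in polysomal, monosomal and total RNA, 1 row of points per list; filled points have an adjusted p below 0.05 and carry their name, and vertical offsets within a row only separate points. ARL is filled in all 3 panels, at -2.97, -2.39 and -2.81, and ERF104 in monosomal and total RNA, at 2.22 and 1.59.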

How the data were processed

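Groups were formed from each array's labelled genotype and RNA fraction. The deposited values are log2 signals that the authors made with RMA, per the submitters' processing notes, for which no version is stated. No scan-level data were used, so background could not be assessed per probe set, and precision is limited by the number of arrays. The values ran from 0.301 to 12.71 for 27827 probe sets, of which a reference table of locus tags named 27241, and dim probe sets were kept.

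A linear model of the 18 arrays was fitted in limma 3.58.1 under R 4.3.3 by lmFit, then eBayes (1 coefficient per group, 12 residual degrees of freedom, two-sided moderated tests). In each of 12 comparisons p-values were adjusted by Benjamini-Hochberg over every probe set, with a threshold of 0.05. The test was checked on simulated data. Intervals are 95% intervals of the fit.

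The labels give a block layout but do not state that like replicate numbers mark 1 block across genotypes; within a genotype they were taken as 1 seed bulk. As a check, residuals of like-numbered arrays correlated above 0.1 in 7 of 27 pairs (-0.166 to 0.245). The block was an alternative.

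The 10 genes and the lists were chosen with earlier results of these data known. Named were all 10 genes, other ethylene genes past the threshold between genotypes, the ARGOS family, and the 5 genes most like EIN2 and EBF2. Alternatives were a replicate block (by number and, for fractions, by seed bulk), only the compared groups, quantile normalization, median centring, brighter probe sets, a variance trend with robust estimation (statmod 1.5.0), array weights, and each compared array left out in turn. Leaving abci20 total array 1 out of comparisons outside its group was chosen after seeing the data. Promoter sequences were not analysed here.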

Additional observations from a re-analysis of the deposited data

How the results depend on the processing

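Of the recomputed values and counts, 44 no longer passed the threshold, 8 newly passed and 35 moved by more than the spread between replicates or, for counts, by over 1.5 times. Sign changes numbered 30 among 862 values of single genes: 26 were differences between genotypes of ETR1, ERS1, EIN4, ETR2, EIN3 and EIL1 that shifted by less than the replicate SD, and 4 are given below. EIN2 and EBF2 were lower in abci20 under every alternative run; centring arrays on their medians took EIN2 in total RNA to -1.20 log2. When the fit held the compared groups alone, fewer arrays were left for the spread. The genes past the threshold between genotypes were then 0 of 10 in total, 4 in polysomal and 1 in monosomal RNA. The selection of EIN2 and EBF2 partly fixed that count. Of the other ethylene genes 0, 7 and 1 of 52 passed, beside 0, 423 and 25 of all 27827 probe sets. Polysomal against total RNA in abci20 gave 1 of 10, beside 1590 of 27827. Array weights gave 4 of 10 and 12 of 52 in polysomal RNA between genotypes, beside 2657 of 27827 probe sets. They gave 5 of 10 (4 higher and 1 lower) in polysomal against total RNA in abci20, beside 11135 of 27827 (5993 higher and 5142 lower). The number of all probe sets called moved with the setting, so nothing is read from these counts alone. Quantile normalization gave 2 (abci20) and 3 (Col-0) of 10 in polysomal against monosomal RNA, beside 2072 and 2070 of 27827 probe sets. The replicate block by seed bulk gave 1 of 10, EIN4, in monosomal against total RNA of Col-0, beside 1706 of 27827 probe sets. The brighter probe sets gave the same, beside 2277 of 13913. So did leaving abci20 total array 1 out of the shared spread, chosen after seeing the data, beside 3185 of 27827. That last setting also gave 4 of 52 in polysomal and 4 of 52 in monosomal RNA between genotypes, beside 215 and 955. Brighter probe sets and the variance trend each gave 5 of 52 in monosomal RNA, beside 1087 of 13913 and 970 of 27827 probe sets. The block by replicate number took EOL1 in total RNA to an adjusted p of 0.0615. With the block, no count of the 10 genes moved by over 1.5 times other than the one named. Leaving out 1 array at a time gave 2 to 3 (total), 1 to 2 (polysomal) and 2 to 2 (monosomal) of 10 between genotypes. Of the 52 it gave 3 to 10, 2 to 2 and 2 to 3, beside 355 to 2640, 27 to 70 and 100 to 482 of 27827. For polysomal against total RNA it gave 1 to 5 (abci20) and 2 to 2 (Col-0) of 10 in either direction, beside 3076 to 9163 and 426 to 1819. For polysomal against monosomal RNA it gave 2 to 4 and 4 to 5, beside 1475 to 2224 and 1730 to 3351. For monosomal against total RNA it gave 0 to 0 and 0 to 1, beside 2195 to 7651 and 768 to 1526. Monosomal minus total RNA of EBF2 in abci20 then ran from -0.0148 to 0.41 and reversed without abci20 monosomal replicate 1 (-0.0033) or abci20 total replicate 2 (-0.0148). That of EIN2 in Col-0 ran from -0.216 to 0.0406 and reversed without Col-0 monosomal replicate 1 (0.0406) and with centring (0.0397); none of these was past the threshold. The cause of these changes was not tested. Signal over background was not available, and a fitted difference had a median standard error of 0.291 log2.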

Other observations

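EIN2 and CTR1 lie on chromosome 5, as ABCI20 does, a fact looked up after their values were seen. By the order of genes in the reference table, EIN2 is 102 measured loci from ABCI20, CTR1 157 and EBF2 2292, of 6236 measured on the chromosome. Of the 101 probe sets between ABCI20 and EIN2, 3 (2.97%) were past the threshold between genotypes in total RNA, 0 (0.0%) in polysomal RNA and 2 (1.98%) in monosomal RNA by limma, beside 3.35%, 0.442% and 1.83% of all probe sets. At an unadjusted p below 0.05 there were 21 in total (20.8%), 13 in polysomal (12.9%) and 20 in monosomal RNA (19.8%), beside 17.5%, 7.95% and 14.9% of all probe sets. Their median difference was -0.05 log2 in total RNA. Of the 156 probe sets between ABCI20 and CTR1, which include the selected EIN2, 5 (3.21%), 1 (0.641%) and 3 (1.92%) passed in total, polysomal and monosomal RNA. All 5 in total RNA were lower in abci20: AT5G02580, AT5G03180, AT5G03285, DIP2 and EIN2. In monosomal RNA 2 were higher and 1, EIN2, was lower. A cause linked to position was not tested.

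ERS2, a receptor gene outside the 10, was named after its values were seen. It was dim, between percentiles 2.35 and 58.1 of the arrays, and between 2.35 and 18.1 in abci20 polysomal RNA. Its differences are therefore near the low end of what the arrays measured. It had 1.72, 1.63 and 1.22 log2 in abci20 polysomal RNA, against 3.49, 4.05 and 3.47 in Col-0 polysomal RNA, without overlap (difference -2.15, SE 0.48, adjusted p = 0.0611). In total RNA the genotypes overlapped, at 1.63, 4.11 and 4.12 in abci20 and 3.68, 2.96 and 2.61 in Col-0.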
